A study of Mus musculus with 2 samples.

Results

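The lysosomal genes examined here were 31 genes for enzymes of the lysosomal lumen and proteins of its membrane, chosen by a fixed list of gene symbols. Every probe set annotated with 1 of these symbols alone was used. This gave 54 probe sets for 30 of the genes, out of 22690 probe sets in the table. No probe set in the table used here carried the symbol Cd63 alone, so Cd63, a tetraspanin of late endosomes, was not analysed here. Of the 30 genes, 28 reached the median signal of an array with at least 1 probe set and are called measured, out of 7137 measured genes.

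The livers were those of male mice that were apolipoprotein E-deficient on the C57BL/6J strain background and so clear remnant lipoproteins poorly. The labels give an age of 2 months. This is shorter than the 11 weeks of feeding, so it cannot be the age at which the livers were taken. In the control group a semipurified Western diet was given for 11 weeks. The oleanolic acid group ate this diet with 0.01% oleanolic acid, a plant triterpenoid, at 10 mg/kg/day over 11 weeks. Both groups carried the same deficiency and ate the Western diet. The number of mice per pool is not given in the sources used here. Each diet is represented by n = 1 pooled Affymetrix array, so no test between diets was possible, and each difference describes these arrays. The growth protocol of the control sample also names oleanolic acid, so the groups were taken from the titles and the diet entries.

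Lysosomes are acidic organelles in which proteins, glycans, glycogen and lipids from endocytosis and autophagy are broken down. Most of their soluble enzymes receive a mannose 6-phosphate tag in the Golgi and travel by its receptors, while the membrane proteins carry sorting signals in their cytosolic tails. In liver, hepatocytes use the pathway to free cholesterol from lipoprotein remnants, and the resident macrophages, Kupffer cells, are rich in it. Many lysosomal genes carry the CLEAR element, an E-box-centred sequence bound by the transcription factor TFEB.

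The promoter windows are shown because this shared regulatory sequence is what the members could have in common beyond the rule. RefSeq windows of GRCm38.p6, from 250 bases before to 50 after a start site, were at hand for 26 of the 31 genes. The E-box CACGTG, which reads the same on both strands, was found in 7 of these 26 genes (26.9%), against 8.09% of 27025 genes with such windows. Its longer form TCACGTGA, which contains the E-box, was found in 3 of 26, against 1.12% of all genes. The full CLEAR palindrome, which adds a G before and a C after the longer form, was in 0 of 26 and in 0.370% of all genes. Each line below gives 60 bases in the direction of transcription, before the start site, with the E-box, or the longer form where present, in capitals.
Ctsd, chr7:142387893-142387952, minus strand: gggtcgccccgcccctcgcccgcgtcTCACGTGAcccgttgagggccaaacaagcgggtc
Ctsa, chr2:164833713-164833772, plus strand: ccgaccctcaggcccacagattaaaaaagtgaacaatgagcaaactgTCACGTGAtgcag
Gla, chrX:134601184-134601243, minus strand: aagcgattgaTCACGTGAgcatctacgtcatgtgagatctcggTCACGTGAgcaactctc
Lamp1, chr8:13159096-13159155, plus strand: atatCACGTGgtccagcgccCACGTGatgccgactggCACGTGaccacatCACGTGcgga
Glb1, chr9:114401003-114401062, plus strand: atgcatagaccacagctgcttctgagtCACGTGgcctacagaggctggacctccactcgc
Gaa, chr11:119267796-119267855, plus strand: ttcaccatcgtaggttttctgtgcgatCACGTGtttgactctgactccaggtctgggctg
Ctsl, chr13:64370711-64370770, minus strand: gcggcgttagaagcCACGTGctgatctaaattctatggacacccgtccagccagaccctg
The Lamp1 window held 4 E-boxes within its 60 bases and the Gla window 2 of the longer form. Ctsd had a further E-box beginning 245 bases before its start, and Ctsa a further one just after it. A match is a description of the sequence and does not show that a factor binds there.

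Across the measured lysosomal genes, the signals of both arrays lay close to each other. Their log2 ratios, oleanolic acid over control, ran from -0.29 (Ctss, 0.82-fold) to 0.17 (Smpd1, 1.13-fold), with a median of 0.02 against 0.0012 over all 7137 measured genes. Of the 28 genes, 15 lay above 0 and 13 below, where 50.2% and 49.7% of all measured genes did. The brightest of 4 signal bands, which held 21 of the 28, had a median of 0.03. Of its 1785 genes, 1039 lay above 0 and 746 below. None of the 28 passed a log2 ratio of 1.5 in either direction, the size that the submitters considered, which 0.392% of measured genes passed. None passed 1 in size, which 1.02% of measured genes did (0.392% above 1 and 0.631% below -1). None passed 0.5 either, where 2.63% of measured genes lay above 0.5 and 3.24% below -0.5 (5.87% in all; 2.75% of genes in the brightest signal band). The median size of the 28 ratios was 0.08, against 0.09 in the brightest signal band and 0.13 over all measured genes.

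The spread of the ratios between genes was an SD of 0.11 for the 28 lysosomal genes and 0.28 for all measured genes. Signal matters to this contrast: 21 of the 28 belonged to the brightest of 4 signal bands, in which the SD between genes was 0.20 and the central 95% of ratios ran from -0.36 to 0.45. Over all measured genes the central 95% ran from -0.56 to 0.51. The central 50% of them lay between -0.14 and 0.12, and 21 of the 28 lysosomal genes (75.0%) fell inside it. The share of the brightest band inside it was not computed.

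**Figure D1:**
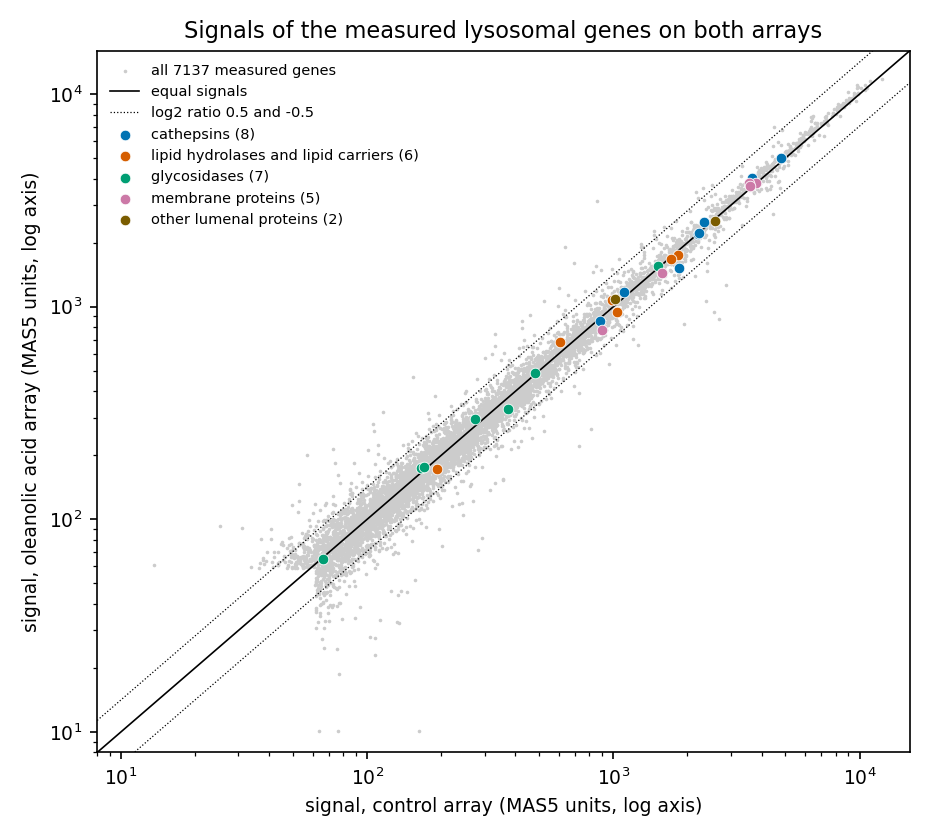
Signals on the control array (x axis) and the oleanolic acid array (y axis), in MAS5 units on log axes, for the 28 measured lysosomal genes coloured by group and for all 7137 measured genes in grey; each point is a gene's geometric mean over its measured probe sets. The coloured points follow the line of equal signals, and none lies outside the dotted lines at log2 ratios of 0.5 and -0.5.

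An error is given with most of the ratios. Where at least 2 probe sets of a gene were measured it is the SD between them, with n the number of probe sets. Otherwise it is the band SD, pooled over genes of like signal (0.27, 0.25, 0.17 and 0.13 from the dimmest to the brightest band). Either covers probe and hybridization error that differs between the probe sets of a gene. Error that they share, from the pool, its RNA or the array, is not covered, nor is variation between mice. Of the 28 genes, 5 had a ratio larger than their band SD (17.9%, against 31.8% of measured genes): Ctss, Npc1, Man2b1, Smpd1 and Ctsh. Man2b1 was among them only through a dim probe set that counted as measured through the control array alone. With both arrays required to reach their median, 4 of the 28 genes were left, against 1993 of the 6805 genes then measured. Only Ctss had a ratio larger than 2 band SDs, which 9.07% of measured genes had.

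The cathepsins, the proteases of the lysosome, had 8 measured members of 10, 4 above 0 and 4 below, with a median log2 ratio of 0.03. This median was below 0 with quantile normalization (-0.0016), with intensity-dependent centring (-0.0048) and when dim probe sets were included (-0.0022). The lowest member was Ctss, the cysteine protease that degrades the invariant chain in antigen-presenting cells, whose signal was 1852.5 on the control array and 1520 with oleanolic acid (log2 ratio -0.29, band SD 0.13). It rested on 1 probe set and stayed between -0.30 and -0.28 under every alternative setting that kept it. The highest was Ctsh, an aminopeptidase, with signals of 3661 and 4022 (log2 ratio 0.14, band SD 0.13). Ctsc, the dipeptidyl peptidase that activates granule serine proteases, had signals of 2336.5 and 2501.5 (log2 ratio 0.10, band SD 0.13). Both were higher in the oleanolic acid array by about the size of their error or less.

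Ctsb, a broad-range cysteine protease, was reported by 4 probe sets that differed in sign. Their control signals were 4141, 1517, 468 and 208, and their log2 ratios in the same order -0.02, 0.10, -0.18 and -0.07. The gene mean of -0.04 ± 0.12 (SD, n = 4) was smaller than this spread. Ctsz, a carboxypeptidase, also had probe sets on both sides of 0, from -0.08 to 0.08, with a mean of -0.0027 ± 0.08 (SD, n = 3). Ctsl, an endopeptidase, had signals of 4804 and 5010 (log2 ratio 0.06, band SD 0.13).

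Outside the cysteine class, Ctsd, the main aspartic protease, had nearly equal signals of 2229 and 2226 (log2 ratio -0.0017, band SD 0.13). Ctsa, a serine carboxypeptidase that protects beta-galactosidase and the sialidase Neu1, had signals of 1105 and 1172 (log2 ratio 0.09, band SD 0.13). The remaining cathepsins were dim on both arrays and entered no group value. Ctsk, the collagen-degrading protease of osteoclasts, reached 31.3 on the control array and 19.9 with oleanolic acid. Ctse, an aspartic protease of endosomes, had signals of 47.3 and 39.1 with one probe set and of 38.3 and 37.0 with the other. The array medians were 61.5 and 59.3, and without detection calls it is unknown whether these signals were above background.

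**Figure D2:**
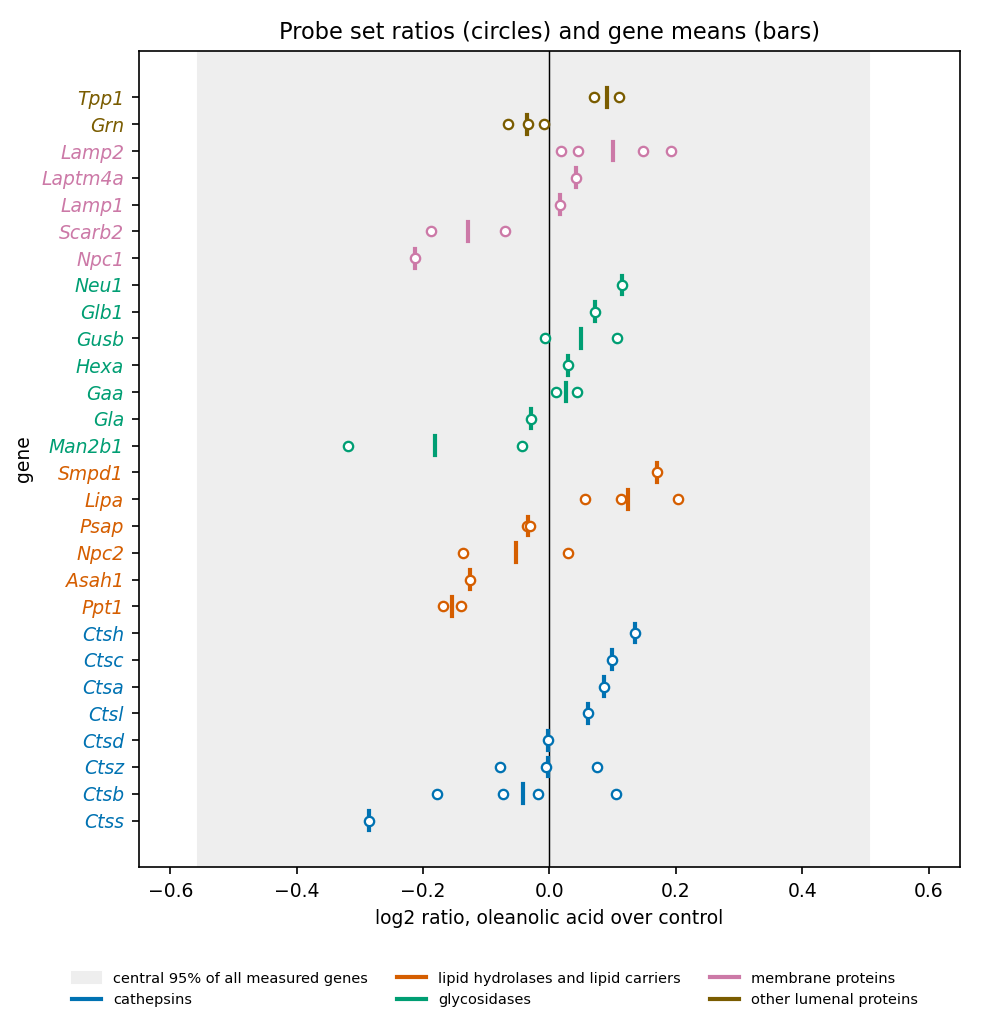
Log2 ratio, oleanolic acid over control (x axis), of each of the 48 measured probe sets (open circles) and the mean of each of the 28 genes (vertical bars), coloured by group; the shaded band is the central 95% of all measured genes, -0.56 to 0.51. Every circle lies inside the band, from -0.32 (Man2b1) to 0.20 (Lipa), and the circles of Ctsb, Ctsz, Npc2 and Gusb lie on both sides of 0.

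Among the lipid hydrolases and lipid carriers, all 6 genes were measured, 2 above 0 and 4 below, with a median of -0.04. This median was below 0 in all 9 alternative settings, which use the same arrays. The other floors and filters could not alter it, because all probe sets of these genes reached the median of both arrays. The median includes the carriers Npc2 (-0.05) and Psap (-0.03), both below 0 in the main processing. Of the hydrolases, Lipa and Smpd1 lay above 0 and Asah1 and Ppt1 below, and no median was computed for the hydrolases alone. Smpd1, acid sphingomyelinase, was the highest of all the measured lysosomal genes, with signals of 605 and 681 (log2 ratio 0.17, band SD 0.13). Lipa, the acid lipase that releases cholesterol from the cholesteryl esters of internalized lipoproteins, had 3 probe sets above 0. Their signals were 1833 and 1982, 1185 and 1231, and 448 and 516, a mean log2 ratio of 0.12 ± 0.07 (SD, n = 3). The sphingomyelin and cholesteryl ester hydrolases thus stood slightly higher in the oleanolic acid array, by less than 1 band SD for Lipa.

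Ppt1, which removes palmitate from proteins, had signals of 282 and 251 with one probe set and of 131 and 119 with the other, a log2 ratio of -0.15 ± 0.02 (SD, n = 2). Its band SD is 0.25, above this difference. Asah1, acid ceramidase, had signals of 1035 and 948 (log2 ratio -0.13, band SD 0.13). Npc2, the soluble carrier that hands cholesterol to Npc1, had probe sets at 0.03 and -0.14, a mean of -0.05 ± 0.12 (SD, n = 2). Psap, the precursor of the saposins that present sphingolipids to their hydrolases, lay at -0.04 and -0.03 with its probe sets, on control signals of 2887 and 1019.

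Glycosidases were all measured, 5 of 7 above 0 and 2 below, with a median of 0.03, or -0.0069 without probe sets whose names end in _x_at, _s_at or _a_at. The latter median is over fewer genes, because Gaa and Hexa had no value without those probe sets. Neu1, a sialidase, was highest with signals of 274 and 297 (log2 ratio 0.11, band SD 0.17). Glb1, beta-galactosidase, had signals of 166 and 175 (log2 ratio 0.07, band SD 0.25). Neu1, Glb1 and their protective partner Ctsa form a complex in the lysosome, and all 3 lay between 0.07 and 0.11, each within its error of 0.

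Man2b1, lysosomal alpha-mannosidase, was the lowest glycosidase at -0.18 ± 0.19 (SD, n = 2). Its brighter probe set had signals of 1969 and 1910 (log2 ratio -0.04). The dimmer one had signals of 70.6 and 56.6 (log2 ratio -0.32) and counted as measured through the control array alone, so a ratio below 0 was built into its selection. With both arrays required to reach their median, Man2b1 was at -0.04. Gla, which cleaves globotriaosylceramide, had signals of 66.1 and 64.8 with its measured probe set (log2 ratio -0.03, band SD 0.27).

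The other glycosidases lay near 0. Gusb, beta-glucuronidase, had probe sets at 0.11 and -0.0069, a mean of 0.05 ± 0.08 (SD, n = 2). Hexa, the alpha subunit of beta-hexosaminidase, was at 0.03 on signals of 1516 and 1547. Gaa, the acid glucosidase that breaks down glycogen, was at 0.03 ± 0.02 (SD, n = 2) on control signals of 581 and 394. A second probe set of Gla (24.2 and 12.2) and the other 2 of Neu1 (10.8 and 5.2, and 17.8 and 25.4) were dim on both arrays and were left out.

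The membrane proteins had 5 measured members of 6, 3 above 0 and 2 below, with a median of 0.02. This median was below 0 with quantile normalization (-0.02), with intensity-dependent centring (-0.02) and without probe sets ending in _x_at, _s_at or _a_at (-0.05). In the last of these settings Lamp1 had no value. Npc1, the transporter that exports cholesterol from the lysosome, was lowest, with signals of 900.3 and 776.5 (log2 ratio -0.21, band SD 0.13). Scarb2, the receptor that carries glucocerebrosidase to the lysosome, had signals of 2153 and 1891 with one probe set and of 1154 and 1100 with the other. Its log2 ratio was -0.13 ± 0.08 (SD, n = 2). The cholesterol exporter Npc1 was thus lower in the oleanolic acid array by more than 1 band SD but less than 2, and its partner Npc2 by less than its error.

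Lamp2, the glycoprotein of the lysosomal membrane needed for autophagosome fusion, was the highest membrane member, at 0.10 ± 0.08 (SD, n = 4). Control and oleanolic acid signals were 4335 and 4393, 3843 and 4258, 3793 and 3915, and 2573 and 2939 for its 4 probe sets, each higher in the oleanolic acid array. With its brightest probe set alone the ratio was 0.02. Its relative Lamp1 had signals of 3785 and 3830 (log2 ratio 0.02, band SD 0.13), and with quantile normalization or intensity-dependent centring it lay at -0.02. Laptm4a, a small transmembrane protein of lysosomes and endosomes, had signals of 3599 and 3704 (log2 ratio 0.04, band SD 0.13).

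Outside the groups, Grn, the precursor of the granulins, lay at -0.04 ± 0.03 (SD, n = 3), with control signals of 3755, 3037 and 1517. Tpp1, a tripeptidyl peptidase, lay at 0.09 ± 0.03 (SD, n = 2), with signals of 1689 and 1824, and 615 and 645. Medians of the 4 groups, with the lipid carriers counted beside the lipid hydrolases, differed from each other by at most 0.07. Among the 13 genes with at least 2 measured probe sets, 9 had probe sets of 1 sign and 4 did not, and the pooled SD between their probe sets was 0.09. The 7 genes with an E-box in their promoter window lay between -0.03 and 0.09 (median 0.03), and the 17 other measured genes with a window between -0.29 and 0.17 (median 0.03).

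**Figure D3:**
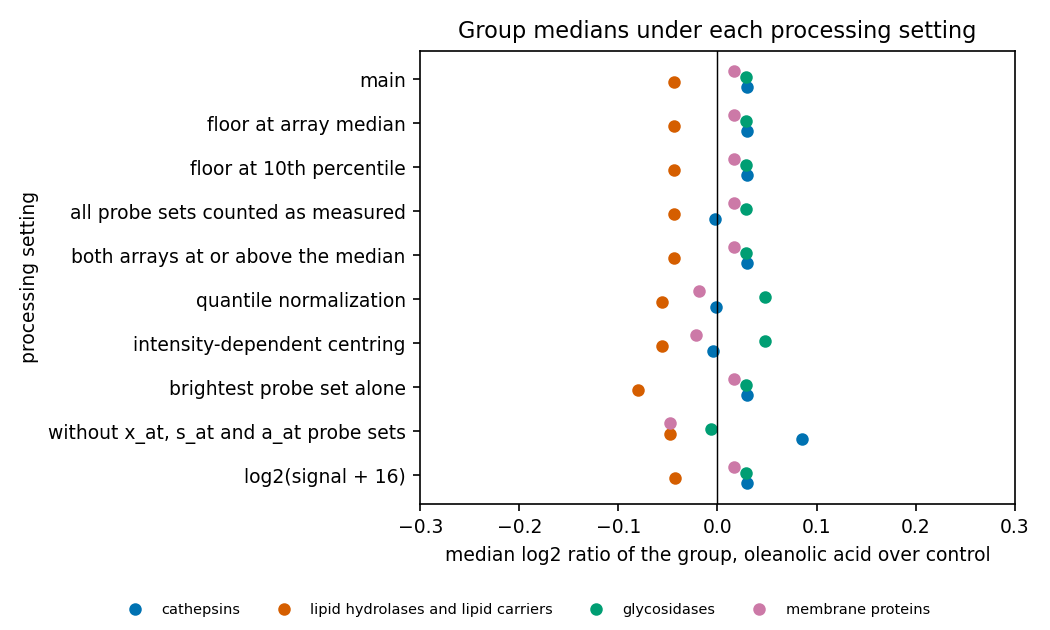
Median log2 ratio, oleanolic acid over control (x axis), of the cathepsins, lipid hydrolases and lipid carriers, glycosidases and membrane proteins (coloured points) under the main processing and 9 alternatives (y axis). The medians stay between -0.08 and 0.09, and the lipid group alone stays on the same side of 0 throughout. That group holds the carriers Npc2 and Psap beside the hydrolases.

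Other genes of the pathway were taken from a list of 128, of which 97 were measured. Their median log2 ratio was 0.02, with 51 above 0 and 46 below, and 4 of 97 (4.12%) passed 0.5 in size, against 5.87% of all measured genes. Among the 4, Atp6v1e1 and Ap1g1 passed only through a probe set that reached the median of 1 array alone, which builds the sign of its ratio into the selection. With both arrays required, 2 of 96 passed (2.08%, against 4.0% of the 6805 genes then measured). The median size of the ratio was 0.14 for these genes, 0.08 for the 28 lysosomal genes above and 0.13 for all measured genes. In the brightest signal band, which held most of the 28, it was 0.09. None of the 97 passed 1.5.

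Further hydrolases (20 measured) had a median of -0.01, 8 above 0 and 12 below. Dnase2a, the acid DNase, had the highest value, with signals of 2158 and 3461 (log2 ratio 0.68, band SD 0.13). This rested on 1 probe set of the _x_at type, which can bind related sequences. Ctsf, a cysteine cathepsin outside the chosen genes, was at 0.48 (band SD 0.25; signals 162.8 and 226.9), and the iduronidase gene Idua at -0.38 (band SD 0.27).

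Further membrane proteins (12 measured) had a median of 0.01, with Litaf at 0.39 ± 0.05 (SD, n = 2), Cln3 at 0.20 and the calcium channel gene Mcoln1 at -0.19 ± 0.08 (SD, n = 2). Subunits of the proton pump that acidifies the lysosome (15 measured) had a median of -0.04, 6 above 0 and 9 below. Atp6v1e1 was the lowest gene of the list at -1.22 ± 1.60 (SD, n = 2), but its probe sets disagreed. The bright one had signals of 1504 and 1411 (log2 ratio -0.09) and the dim one 84.8 and 16.6 (-2.35). The dim one counted as measured through the control array alone, and with both arrays required the gene was at -0.09. Atp6v0a2 was at -0.39 ± 0.10 (SD, n = 2), or -0.32 with both arrays required, and Atp6v1d at -0.28 ± 0.11 (SD, n = 3).

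The sorting machinery, which holds the mannose 6-phosphate receptors and adaptor subunits (15 measured), had a median of 0.04. Its largest value, 0.79 ± 0.76 (SD, n = 2) for the adaptor subunit Ap1g1, joined probe sets at 1.33 (signals 44.6 and 111.9) and 0.25 (166.6 and 197.9). The first counted as measured through the oleanolic acid array alone, and with both arrays required the gene was at 0.25. Ap3m1 was at -0.39 ± 0.35 (SD, n = 4) and the receptor gene Sort1 at -0.34 ± 0.70 (SD, n = 2), each with an error close to or above its size. All 4 probe sets of Ap3m1 lay below 0, from -0.89 to -0.15, and its value was the same with both arrays required. Those of Sort1 differed in sign (0.15 and -0.84). With both arrays required, Sort1 was at 0.15. The receptor genes M6pr (-0.05) and Igf2r (-0.03) were near 0.

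Autophagy genes (22 measured) had a median of 0.05, with 15 above 0 and 7 below. Gabarapl1, which encodes an autophagosome-bound ubiquitin-like protein, had both probe sets higher in the oleanolic acid array, with signals of 1187.5 and 1810.5 and of 2189 and 3123 (mean log2 ratio 0.56 ± 0.07, SD, n = 2). The autophagy receptor gene Sqstm1 had signals of 1658 and 2143 (log2 ratio 0.37, band SD 0.13), and the kinase gene Ulk1 was at -0.29 ± 0.12 (SD, n = 2), or -0.20 with both arrays required. Regulators (13 measured) had a median of 0.02, with Lamtor1 at 0.38 ± 0.33 (SD, n = 3), Tsc2 at 0.33 and Lamtor3 at -0.19. Tfeb itself was dim, with signals of 38.0 and 49.1.

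**Figure D4:**
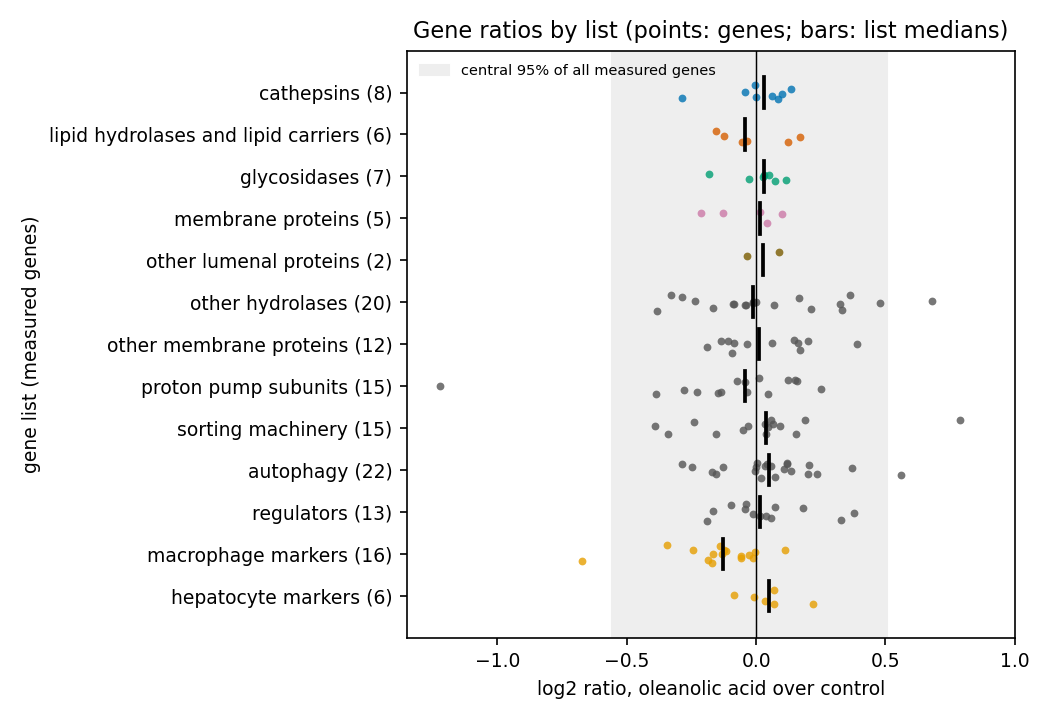
Log2 ratio, oleanolic acid over control (x axis), of each measured gene (points, spread vertically for legibility) in the lysosomal groups, the other lysosomal lists and the macrophage and hepatocyte marker lists (y axis, number of measured genes in brackets); bars are list medians and the shaded band is the central 95% of all measured genes. All list medians lie between -0.13 (macrophage markers) and 0.05 (hepatocyte markers), and the point at -1.22 is Atp6v1e1, which lay at -0.09 with both arrays required to reach their median.

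Markers of the cell types in the samples were read beside these values. Hepatocyte markers were bright on both arrays (Alb 8540 and 8950), with 4 of 6 measured genes above 0 and a median of 0.05. Of 17 macrophage markers, 16 were measured and 15 of them lay below 0, where 49.7% of all measured genes did, with a median of -0.13 that stayed between -0.13 and -0.11 over the alternatives. Their summed signal was 22759 on the control array and 21084 with oleanolic acid. The largest values were those of the scavenger receptor genes Marco (-0.67, band SD 0.25) and Msr1 (-0.24), of Mpeg1 (-0.34), Csf1r (-0.18 ± 0.18, SD, n = 3) and Tyrobp (-0.17), and C1qc was the exception at 0.11. Ctss, which macrophages and other antigen-presenting cells express, lay on the same side of 0, and the part of these cells in its value was not tested. Of all 28 lysosomal genes, 13 lay on that side and 15 on the other. In bulk liver, fewer cells of a type and less RNA per cell cannot be told apart.

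Transcripts of other tissues were read in the same way, but most were measured on 1 array alone. Of 8 measured exocrine pancreas markers, 7 were below -0.5, with summed signals of 2136.5 and 986.7 for the list. All 7 counted as measured through the control array alone, so a ratio below 0 was built into their selection. The other, Cela1, was at -0.15. The same selection holds for the plasma cell gene Jchain (signals 133.9 and 43.8), for Ucp1 (76.4 and 1.0) and Cox8b (64.0 and 9.5) of brown fat and muscle, for Ms4a4b of T and NK cells (69.5 and 38.5) and for Epcam of cholangiocytes (63.1 and 32.9). With both arrays required, none of these 5 genes was measured. Ighm, the heavy chain gene of immunoglobulin M, was at -2.72 with the 2 probe sets that reached the median of both arrays (351.6 and 59.6, and 839.8 and 113.7). Measured endothelial (7 genes) and stellate cell markers (6 genes) had medians of 0.04 and 0.01. The stellate gene Lrat (48.1 and 75.9) counted as measured through the oleanolic acid array alone. This built a ratio above 0 into its selection. With both arrays required, the stellate median over 5 genes was -0.01. The other lists had Alas2 of erythroid cells (-0.07), S100a8 (0.21) and S100a9 (0.48) of neutrophils, and 0 of 5 dendritic cell genes. Their part in the lysosomal values was not tested.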

How the data were processed

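The deposited values are linear intensities, the probe set signals of the authors' MAS5 run (version not given in the sources used here), per the submitters' processing notes. Their mean after trimming 2% at each end was 300.1 on both arrays, so no scaling was added. Symbols came from the platform annotation: 20380 probe sets carried 1 symbol, 691 several and 1555 none, beside 64 control probe sets. Of those with 1 symbol, 20351 matched RefSeq (GRCm38.p6) by gene identifier.

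Signals were raised to each array's 25th percentile (10.7 for control, 10.1 for oleanolic acid) before taking log2. A probe set counted as measured when either array reached its median. A gene's ratio averages its measured probe sets. The members and lists were chosen with earlier results of these data known. Named were, per group, the 2 highest and 2 lowest members, those with probe sets of both signs, and up to 3 genes per other list (5 for macrophages) by size, while other genes were named after their values were seen. Calculations used Python 3.11.15 with pandas 2.3.3 and were tested on simulated data. With 1 array per diet, the number of arrays limits the precision.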

Additional observations from a re-analysis of the deposited data

How the results depend on the processing

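In all, 9 alternatives were run: another floor (the median or the 10th percentile), no filter or both arrays at their median, quantile normalization, intensity-dependent centring, the brightest probe set alone, no probe sets ending in _x_at, _s_at or _a_at, and log2(signal + 16). The number of lysosomal genes past 0.5 in size was 0 in all but one. With all probe sets counted as measured it was 2, through dim probe sets: Ctsk at -0.65 and Gla at -0.51. The median over the lysosomal genes stayed between 0.0076 and 0.02 and that of the other lysosomal genes between -0.0027 and 0.03. Without probe sets ending in _x_at, _s_at or _a_at, only 20 of the 28 measured genes had a value, so medians in that setting cover fewer genes. Of the 28 measured genes, 24 kept their sign wherever they had a value, and 4 (Gla, Gusb, Lamp1 and Npc2) had the other sign in at least 1 setting. Several settings could not alter most of these values. The 10th percentile floor changed none of them, and the median floor and the filter on both arrays changed only Man2b1. Taking the brightest probe set alone could not alter the 15 genes with 1 measured probe set. Leaving out a replicate was not possible, with 1 array per diet. No paired analysis was possible because each diet has a single pooled array. Dim probe sets limit what can be said of Ctsk, Ctse and Tfeb.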
